A study of Mus musculus with 2 samples.

Results

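Killer cell lectin-like receptors were followed in tumours from the livers of mice that lacked Crtc2 or carried it. The 10 genes described here are Klrk1, Klrd1, Klrc1, Klre1, Klrb1c, Klrg1, Klra4, Klra8, Klra7 and Klra9. They were chosen by name, though with earlier results of these data known, out of 32285 features in the count matrices. The matrices hold 26 genes with a Klr symbol in all. Both groups, Crtc2-/- and Crtc2+/+, had received diethylnitrosamine (DEN, a liver carcinogen) by intraperitoneal injection at 25 mg/kg when 2 weeks old. Both were then kept on a NASH diet, a diet that models nonalcoholic steatohepatitis, between week 8 and week 26. Tumour cells were run on the 10x Genomics droplet system with 3' chemistry, 1 library per genotype. The sources used here do not give the strain, the number of animals and tumours in each library, or the part of Crtc2 that was deleted. With 1 library per genotype, no difference below has a replicate check, and none was tested. Every interval is a 95% interval that covers counting error only.

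These receptors are C-type lectin-like membrane proteins, and in mice most of their genes lie together in the natural killer gene complex. Natural killer (NK) cells use them to read ligands on other cells, and activated T cells take up part of the set. NKG2D, encoded by Klrk1, is an activating receptor for stress-induced ligands of the Rae-1, H60 and Mult1 families, and it signals through the adaptors DAP10 (Hcst) and DAP12 (Tyrobp). CD94, encoded by Klrd1, pairs with NKG2A, encoded by Klrc1, into an inhibitory receptor for the nonclassical class I molecule Qa-1 (H2-T23). Klre1 encodes a partner chain of the Klri1 and Klri2 receptors. Klrb1c encodes the NK1.1 antigen, and Klrg1 encodes an inhibitory receptor for classical cadherins such as E-cadherin (Cdh1). The Klra genes encode the Ly49 receptors, which are switched on in only a part of the NK cells: Klra4 (Ly49D) and Klra8 (Ly49H) are activating and signal through DAP12, and Klra7 (Ly49G) and Klra9 (Ly49I) are inhibitory receptors for class I molecules. In the liver, NK cells comprise conventional NK cells, which express Eomes and more Ly49, and tissue-resident type 1 innate lymphoid cells (ILC1), which lack Eomes.

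All 10 genes were annotated as protein coding on mouse chromosome 6 (GENCODE M21, GRCm38, the assembly also called mm10), and the 4 Klra genes lie on the minus strand between positions 130043731 and 130233322. The promoters of the 4 Klra genes are shown because these genes were the ones whose NK levels lay apart together. The sequences are RefSeq's on GRCm38.p6, from 250 bases before the start to 50 bases after it, 5′ to 3′ on the gene's own strand. Klra4 is at chr6:130067222-130067521, Klra8 at chr6:130129849-130130148, Klra7 at chr6:130233273-130233572 and Klra9 at chr6:130193063-130193362, all on the minus strand. Capitals mark the runs of at least 10 bases that all 4 share.
Klra4: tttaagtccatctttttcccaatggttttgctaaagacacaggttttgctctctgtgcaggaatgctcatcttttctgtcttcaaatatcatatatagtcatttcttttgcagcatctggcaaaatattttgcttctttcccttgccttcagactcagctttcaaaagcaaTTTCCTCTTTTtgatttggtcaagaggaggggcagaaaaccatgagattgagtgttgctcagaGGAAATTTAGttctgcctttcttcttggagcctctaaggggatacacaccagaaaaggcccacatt
Klra8: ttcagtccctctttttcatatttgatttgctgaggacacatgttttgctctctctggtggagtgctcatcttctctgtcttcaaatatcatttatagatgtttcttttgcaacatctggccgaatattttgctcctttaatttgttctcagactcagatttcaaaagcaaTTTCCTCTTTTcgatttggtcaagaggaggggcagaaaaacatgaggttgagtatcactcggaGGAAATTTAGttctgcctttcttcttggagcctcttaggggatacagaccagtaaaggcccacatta
Klra7: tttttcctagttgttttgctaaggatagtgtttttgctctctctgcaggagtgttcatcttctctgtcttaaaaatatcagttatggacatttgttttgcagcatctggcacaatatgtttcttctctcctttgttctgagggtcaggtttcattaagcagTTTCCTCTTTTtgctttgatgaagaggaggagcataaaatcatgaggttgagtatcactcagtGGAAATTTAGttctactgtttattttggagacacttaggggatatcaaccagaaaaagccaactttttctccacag
Klra9: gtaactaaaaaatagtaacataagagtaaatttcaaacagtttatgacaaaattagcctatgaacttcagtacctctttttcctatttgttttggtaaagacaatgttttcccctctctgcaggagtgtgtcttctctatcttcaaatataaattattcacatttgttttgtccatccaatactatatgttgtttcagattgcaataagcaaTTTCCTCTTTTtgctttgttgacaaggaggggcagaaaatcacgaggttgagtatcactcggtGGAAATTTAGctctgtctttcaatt

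Each of the 4 windows held the same 2 shared runs, which cover 21 of its 300 bases, and the longer run has 11 bases. In pairwise alignment the promoters of the activating receptors Klra4 and Klra8 were 86.0% identical. Klra7 was 73.7% identical to Klra4 and 74.3% to Klra8. The Klra9 window stood apart, at 50.7% to 53.0% identity with the other 3.

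The Klrk1 promoter, at chr6:129623815-129624114 on the minus strand, is shown for contrast because Klrk1 had the largest difference among the members that were widely detected in CD8 T cells. Capitals mark its match to the RUNX motif TGTGGT.
Klrk1: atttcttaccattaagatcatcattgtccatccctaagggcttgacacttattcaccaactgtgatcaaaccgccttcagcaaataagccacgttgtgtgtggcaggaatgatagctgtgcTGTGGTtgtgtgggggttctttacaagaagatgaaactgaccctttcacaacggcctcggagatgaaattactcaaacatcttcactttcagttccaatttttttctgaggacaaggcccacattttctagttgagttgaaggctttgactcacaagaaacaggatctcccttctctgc

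A promoter sequence was at hand for 8 of the 10 genes, and 4 motifs were searched in them on both strands. TGTGGT (RUNX) occurred in the windows of Klrk1, Klrc1, Klrb1c and Klre1, against 16.8% of all 32851 promoters of the same length. TGACG, the core of the cyclic AMP response element (CRE) that CREB binds with CRTC coactivators, is found in 20.8% of all promoters, and the full element TGACGTCA, which contains it, in 1.79%. The T-box motif AGGTGTGA is found in 1.28%. The letters of the CRE core, the full CRE and the T-box motif were in none of the 8 windows, and the 4 Klra windows held none of the 4 motifs.

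Similar sequence at the 3' ends of the transcripts, not in the promoters, limits how reads of these genes can be assigned. Stretches of 50 bases were taken from the last 500 bases of the transcripts. Of these, 49.4% for Klra9 and 43.5% for Klrc1 occur in transcripts of other genes as well. The other genes are Klra8, Klra3, Klra10, Klra11-ps and Klra14-ps for Klra9, and Klrc2 and Klrc3 for Klrc1. The share was 22.1% for Klra7, 17.8% for Klrb1c, 13.1% for Klra8 and 4.66% for Klra4, and it was 0 for Klrk1, Klrd1, Klrg1 and Klre1. The levels of the first group of 6 genes are therefore less certain than those of the other 4. Klrb1c also overlaps Gm44511 on the same strand.

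Transcripts were counted as UMIs (unique molecular identifiers), 78040008 over 9242 barcodes in Crtc2-/- and 81487425 over 9707 barcodes in Crtc2+/+. Filters and removal of called doublets left 8901 Crtc2-/- and 9349 Crtc2+/+ cells with medians of 6560 and 7115 UMIs, and 29 barcodes occurred in both libraries. Crtc2 itself was detected in both: the CD8 T gate held 37 Crtc2 UMIs, or 4.04 CPM (a gene's UMIs relative to all UMIs of the gate, on the usual CPM scale), in Crtc2-/- and 56 UMIs, or 9.91 CPM, in Crtc2+/+. Since the deleted part is unknown, 3' tags do not check the genotype label. Gates on marker UMIs defined 5 populations. The NK gate (Ncr1 or Eomes, no Cd3d, Cd3e or Cd3g) held 245 Crtc2-/- and 213 Crtc2+/+ cells, the CD8 T gate 1530 and 976, the CD4 T gate 359 and 262, the gate of T cells with a Trdc UMI (the T cell receptor delta constant gene, here Trdc T) 187 and 149, and the conventional dendritic cell gate (cDC; Flt3 with Cd209a or Clec9a) 760 and 356. Of the Trdc T cells, 24 Crtc2-/- and 11 Crtc2+/+ cells were also CD8 T cells.

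Marker lists were read in the gates, and RNA of other cell types differed between libraries. In the NK gate all 10 NK markers, of which Ncr1 and Eomes define the gate, were detected and summed to 16378 CPM in Crtc2-/- and 15661 CPM in Crtc2+/+. CD8 T cells share many of them, and the same list summed to 18106 CPM in Crtc2-/- and 11847 CPM in Crtc2+/+ there. The 10 T cell markers summed to 557 CPM in Crtc2-/- and 610 CPM in Crtc2+/+ in the NK gate, with Cd5 at 0 in both and Cd3d, Cd3e and Cd3g at 0 by the gate's rule. All 10 hepatocyte markers were detected there too, at 3752 CPM in Crtc2-/- and 634 CPM in Crtc2+/+, and all 7 macrophage markers at 990 and 2608 CPM. Of the 245 Crtc2-/- and 213 Crtc2+/+ NK gate cells, 7 and 19 were also in a macrophage gate (C1qa, C1qb and C1qc sum of at least 10). In the CD8 T gate the 6 B cell markers summed to 571 CPM in Crtc2-/- and 83.9 CPM in Crtc2+/+. The part that this RNA plays in the receptor values was not tested.

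Every one of the 10 genes had its highest level in the NK gate, in both libraries. The distance to the next gate set the genes apart. For Klrd1 it was small, with the NK level 2.16 times that of the next gate (cDC) in Crtc2-/- and 2.60 times in Crtc2+/+. For Klra4 it was 155 times the CD8 T level in Crtc2-/- and 57.7 times in Crtc2+/+, and for Klra8 it was 10.4 times the Trdc T level in Crtc2-/- and 73.3 times the CD8 T level in Crtc2+/+. The NK gate held 83.7% of all Klra4 UMIs in Crtc2-/- and 76.1% in Crtc2+/+, but 13.5% and 16.8% of all Klrd1 UMIs.

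**Figure D1:**
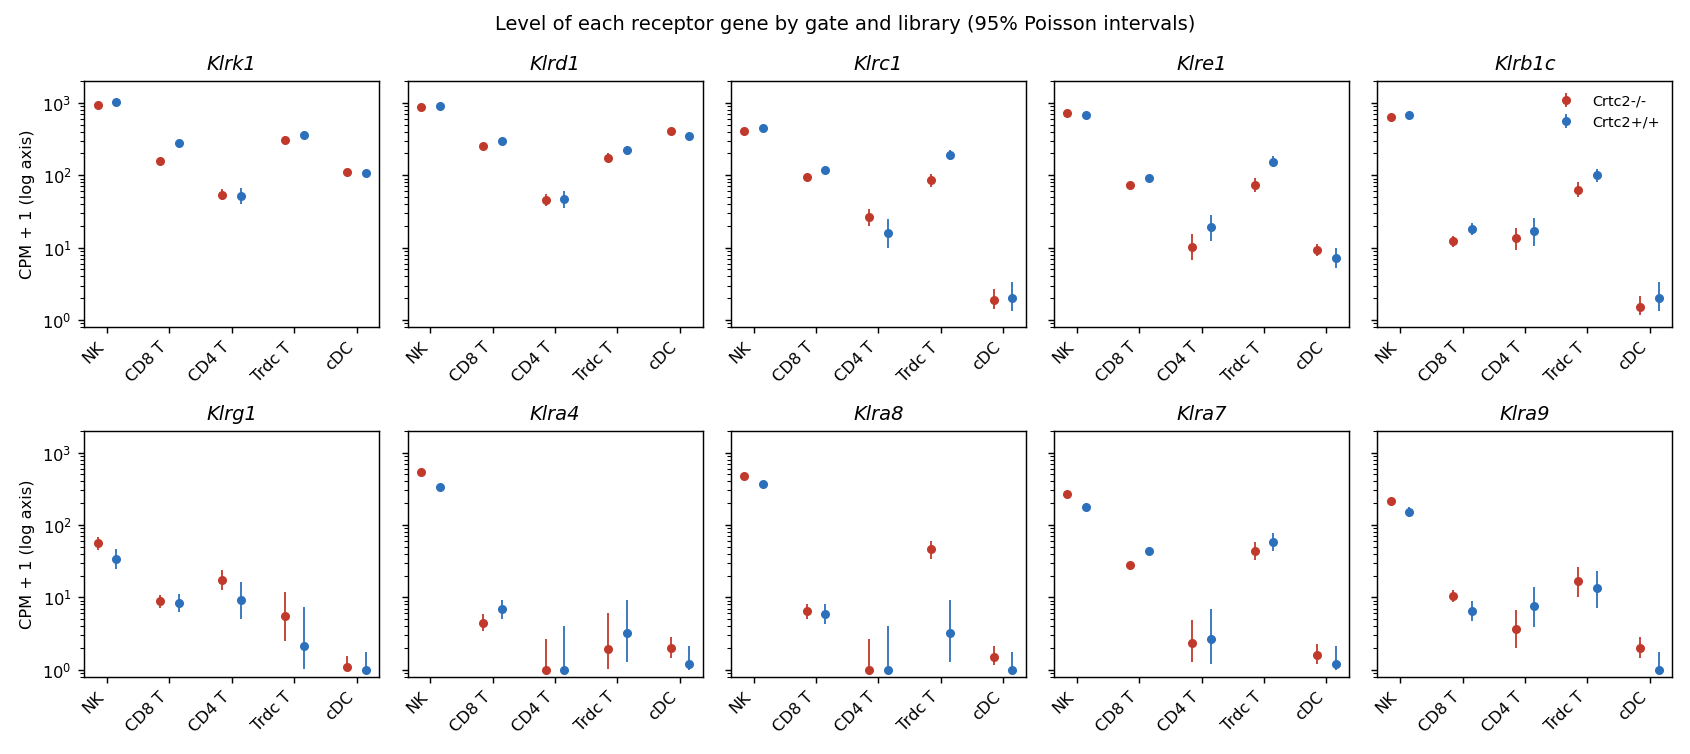
Level of each receptor gene in 5 gates, in CPM plus 1 on a log axis, with Crtc2-/- in red on the left and Crtc2+/+ in blue on the right of each pair. Points are 1 library each and bars are exact 95% Poisson intervals. Klra4 is at 543 CPM in Crtc2-/- and 337 CPM in Crtc2+/+ NK cells and in single digits elsewhere, whereas Klrd1 stays at or above 44.3 CPM in every gate.

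Klrk1, the activating NKG2D chain, was nearly equal between libraries in NK cells and lower in Crtc2-/- CD8 T cells. NK cells had 942 CPM (interval 893 to 992) in Crtc2-/- and 1019 CPM (962 to 1078) in Crtc2+/+, a log2 ratio of -0.11 (here and below Crtc2-/- over Crtc2+/+, after 10 CPM was added to both). CD8 T cells had 156 CPM (148 to 164) in Crtc2-/- and 278 CPM (264 to 292) in Crtc2+/+, a log2 ratio of -0.79. The intervals of the CD8 T cells lay far apart, and those of the NK cells overlapped, with a ratio of 0.924 (0.855 to 0.999).

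The CD8 T difference was in how many cells had the transcript, not in how much a positive cell carried. Klrk1 was detected in 25.0% of Crtc2-/- and 42.6% of Crtc2+/+ CD8 T cells. A positive cell held 3.73 Klrk1 UMIs on average in Crtc2-/- and 3.77 in Crtc2+/+. With each cell thinned to 1000 UMIs, the expected shares were 10.7% in Crtc2-/- and 19.6% in Crtc2+/+. The B cell gate, of cells that should lack the gene, gave a background, with Klrk1 in 5.08% of Crtc2-/- and 4.07% of Crtc2+/+ cells. Its medians of 4784.5 and 4030.5 UMIs per cell were close to the 4657.5 and 5023.5 UMIs of the CD8 T cells. That gate was mixed: 361 of its 1556 Crtc2-/- and 209 of its 738 Crtc2+/+ cells were also in the macrophage gate.

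CD8 T cells with a UMI of Pdcd1, the gene of the checkpoint receptor PD-1, numbered 720 of 1530 in Crtc2-/- and 242 of 976 in Crtc2+/+, so Klrk1 was read in both kinds apart. Among Pdcd1-positive cells it was at 139 CPM in Crtc2-/- and 310 CPM in Crtc2+/+, a ratio of 0.448 (0.395 to 0.509). Among Pdcd1-negative cells it was at 172 CPM in Crtc2-/- and 268 CPM in Crtc2+/+, with a log2 ratio of -0.61. The direction was the same in both, and whether the ratios differ was not tested.

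In the Trdc T, CD4 T and cDC gates the interval of the Klrk1 ratio included 1. A further group of T cells had Cd3 UMIs but no Cd4, Cd8a, Cd8b1 or Trdc UMI. In it Klrk1 was at 312 CPM in Crtc2-/- and 386 CPM in Crtc2+/+, a ratio of 0.808 (0.742 to 0.881). Trdc T cells had 309 CPM in Crtc2-/- and 360 CPM in Crtc2+/+, with a UMI in 57.2% and 55.0% of cells. CD4 T cells had the lowest levels, 53.2 CPM in Crtc2-/- and 51.5 CPM in Crtc2+/+. The order NK, Trdc T, CD8 T, cDC, CD4 T held in both libraries, and the intervals of neighbours in that order did not overlap.

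Klrd1 (CD94), which NKG2A needs to reach the surface, was detected in every gate. NK cells had 883 CPM (836 to 931) in Crtc2-/- and 894 CPM (841 to 950) in Crtc2+/+, and a UMI was found in 84.9% and 85.4% of them. CD8 T cells had 252 CPM (242 to 263) in Crtc2-/- and 293 CPM (279 to 307) in Crtc2+/+, in 44.6% and 57.4% of cells. Of these, the CD8 T intervals did not overlap and the NK intervals did. Within CD8 T cells the Klrd1 ratio was 0.750 (0.667 to 0.845) in Pdcd1-positive and 0.959 (0.887 to 1.04) in Pdcd1-negative cells. The second interval includes 1, and whether the ratios differ was not tested. Trdc T cells had 174 CPM (150 to 201) in Crtc2-/- and 221 CPM (191 to 254) in Crtc2+/+. Those intervals overlapped, with a ratio of 0.789 (0.642 to 0.968). CD4 T cells had 44.3 and 45.7 CPM, also with overlapping intervals.

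Klrc1 (NKG2A) was lower in Crtc2-/- in NK, CD8 T and Trdc T cells, by unequal amounts. NK cells had 401 CPM (370 to 434) in Crtc2-/- and 453 CPM (416 to 493) in Crtc2+/+, a log2 ratio of -0.17. CD8 T cells had 92.3 CPM (86.2 to 98.8) in Crtc2-/- and 116 CPM (107 to 125) in Crtc2+/+, a log2 ratio of -0.30. Trdc T cells had 84.3 CPM (68.0 to 103) in Crtc2-/- and 188 CPM (160 to 219) in Crtc2+/+, a log2 ratio of -1.07. The intervals overlapped in NK cells, where the ratio was 0.884 (0.786 to 0.995), and were separate in both T gates. In CD4 T cells Klrc1 ran the other way, at 25.2 CPM in Crtc2-/- and 14.95 CPM in Crtc2+/+, on 57 and 18 UMIs, with overlapping intervals.

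Klrd1 had the higher share in cells with Klrc1, the other chain of its receptor, in both the NK and the CD8 T gate. Among NK cells with a Klrc1 UMI, Klrd1 was detected in 91.0% of 134 in Crtc2-/- and 93.8% of 128 in Crtc2+/+. Among NK cells without one, it was detected in 77.5% of 111 in Crtc2-/- and 72.9% of 85 in Crtc2+/+. The pair was not particular in this: Klrd1 was in 92.2% of Klrk1-positive and 25.9% of Klrk1-negative Crtc2-/- NK cells. In Crtc2+/+ NK cells without B cell, macrophage or neutrophil UMIs the order was turned round, with Klrd1 in 36 of 40 Klrc1-positive and 29 of 30 Klrc1-negative cells. In CD8 T cells the shares were 66.4% in Crtc2-/- and 75.2% in Crtc2+/+ with Klrc1, against 38.3% and 50.4% without it. Cells with a Klrc1 UMI were also deeper in the CD8 T gate, with medians of 5438 UMIs in Crtc2-/- and 5855 in Crtc2+/+ against 4443.5 and 4630 without.

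Klre1, the partner of the Klri chains, was at 718 CPM (676 to 762) in Crtc2-/- and 683 CPM (637 to 732) in Crtc2+/+ NK cells, with overlapping intervals. In Trdc T cells it was at 72.4 CPM (57.3 to 90.2) in Crtc2-/- and 153 CPM (128 to 181) in Crtc2+/+, and 11.2% and 25.5% of cells had a UMI. In CD8 T cells it was at 71.3 CPM in Crtc2-/- and 90.5 CPM in Crtc2+/+. The ratio there was 0.941 (0.743 to 1.20) in Pdcd1-positive and 0.783 (0.678 to 0.904) in Pdcd1-negative cells. The Trdc T log2 ratio of -0.98 lay just short of the 2-fold limit used below, which Klrc1 passed. With no added constant both were past 2-fold, at 0.474 (0.354 to 0.630) for Klre1 and 0.449 (0.344 to 0.582) for Klrc1.

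Klrb1c, the NK1.1 antigen by which NK cells of some mouse strains are sorted, was a marker of the NK gate in both libraries. NK cells had 638 CPM (599 to 680) in Crtc2-/- and 687 CPM (641 to 736) in Crtc2+/+, in 84.9% and 84.0% of cells. Trdc T cells had 62.3 CPM (48.4 to 79.0) in Crtc2-/- and 99.6 CPM (79.9 to 123) in Crtc2+/+, in 12.3% and 22.1% of cells. CD8 T cells had 11.2 CPM in Crtc2-/- and 17.0 CPM in Crtc2+/+. The T cells with no Cd4, Cd8a, Cd8b1 or Trdc UMI held 22.3% of all Klrb1c UMIs in Crtc2-/- and 23.8% in Crtc2+/+, at 110 and 128 CPM.

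Klrg1, the cadherin receptor that marks mature NK cells and short-lived effector T cells, was low everywhere. NK cells had 55.0 CPM (43.8 to 68.2) in Crtc2-/- and 32.8 CPM (23.3 to 44.9) in Crtc2+/+, on 83 and 39 UMIs. The ratio was 1.68 (1.13 to 2.52), while the shares of positive NK cells, 15.9% in Crtc2-/- and 12.2% in Crtc2+/+, had overlapping intervals. CD8 T cells had 7.86 CPM in Crtc2-/- and 7.44 CPM in Crtc2+/+, and Trdc T cells held only 5 and 1 UMIs.

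**Figure D2:**
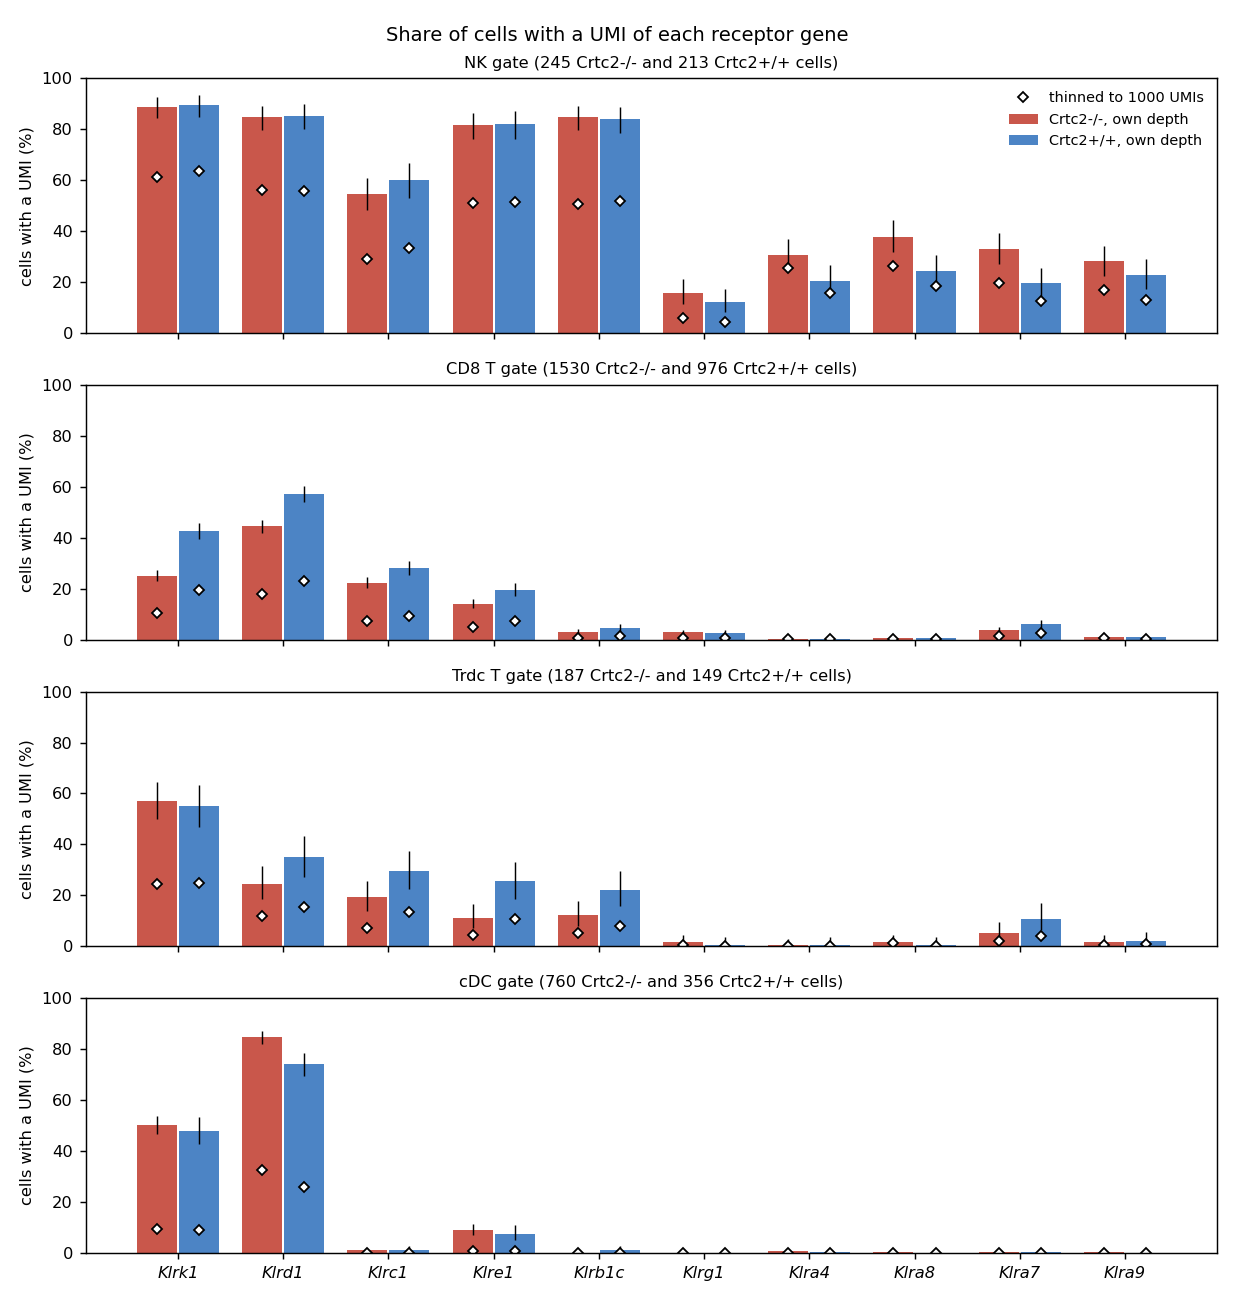
Share of cells with at least 1 UMI of each receptor gene in 4 gates, in percent, with Crtc2-/- (red) to the left of Crtc2+/+ (blue). Error bars are exact 95% binomial intervals and diamonds give the expected share after thinning each cell to 1000 UMIs. The Klra genes mark 28.2% to 37.96% of Crtc2-/- and 19.7% to 24.4% of Crtc2+/+ NK cells, and Klrd1 marks most cDC in both libraries.

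The 4 Ly49 genes were higher in Crtc2-/- than in Crtc2+/+ NK cells. Klra4 (Ly49D) had 543 CPM (506 to 581) in Crtc2-/- and 337 CPM (305 to 372) in Crtc2+/+, a ratio of 1.61 (1.43 to 1.82). Klra8 (Ly49H) had 466 CPM (432 to 502) in Crtc2-/- and 363 CPM (330 to 399) in Crtc2+/+, a ratio of 1.28 (1.14 to 1.45). These activating receptors were at 0 in the CD4 T gate of both libraries, where a count of 0 allows up to 1.33 CPM in Crtc2-/- and 2.49 CPM in Crtc2+/+.

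Klra7 (Ly49G), an inhibitory receptor, had 270 CPM (245 to 298) in Crtc2-/- and 176 CPM (153 to 201) in Crtc2+/+ NK cells, a ratio of 1.54 (1.30 to 1.83). Klra9 (Ly49I), also inhibitory, had 213 CPM (190 to 237) in Crtc2-/- and 150 CPM (129 to 173) in Crtc2+/+, a ratio of 1.42 (1.18 to 1.72). For none of the 4 did the intervals of the libraries overlap. All 4 log2 ratios, 0.67 for Klra4, 0.59 for Klra7, 0.48 for Klra9 and 0.35 for Klra8, were below 1.

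More Crtc2-/- NK cells were positive for each Ly49 gene. Klra4 was detected in 30.6% of Crtc2-/- and 20.7% of Crtc2+/+ NK cells, Klra8 in 37.96% and 24.4%, Klra7 in 33.1% and 19.7%, and Klra9 in 69 of 245 and 49 of 213 cells. The intervals of these shares overlapped for Klra4 and Klra9 and were separate for Klra8 and Klra7. A Klra4-positive cell held 10.9 Klra4 UMIs on average in Crtc2-/- and 9.11 in Crtc2+/+, and a Klra8-positive cell 7.56 and 8.31 Klra8 UMIs. At least 1 of the 4 was found in 137 of 245 Crtc2-/- cells (55.9%, interval 49.5% to 62.2%) and 92 of 213 Crtc2+/+ cells (43.2%, 36.4% to 50.1%). After thinning to 1000 UMIs the expected shares were 48.7% in Crtc2-/- and 35.8% in Crtc2+/+. All 4 were found together in 18 Crtc2-/- and 3 Crtc2+/+ cells.

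The Ly49 genes were also read by Eomes detection within the NK gate. Eomes was detected in 41.2% (35.0% to 47.7%) of Crtc2-/- and 34.3% (27.9% to 41.1%) of Crtc2+/+ NK gate cells, with overlapping intervals. The part of this share in the Ly49 values was not tested. Among Eomes-positive cells, 74.3% in Crtc2-/- and 71.2% in Crtc2+/+ had at least 1 Ly49 gene. Among Ncr1-positive cells without Eomes, 43.1% in Crtc2-/- and 28.6% in Crtc2+/+ had one. Within the Eomes-positive cells the interval of the ratio lay above 1 for Klra4 (1.18 to 1.62) and Klra9 (1.15 to 1.97) and included 1 for Klra8 and Klra7. Within the Eomes-negative cells it lay above 1 for Klra4, Klra8 and Klra7 and included 1 for Klra9, and Klra7 had 181 CPM in Crtc2-/- and 74.9 CPM in Crtc2+/+. A cell without an Eomes UMI may still express Eomes, so the split is by detection.

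**Figure D3:**
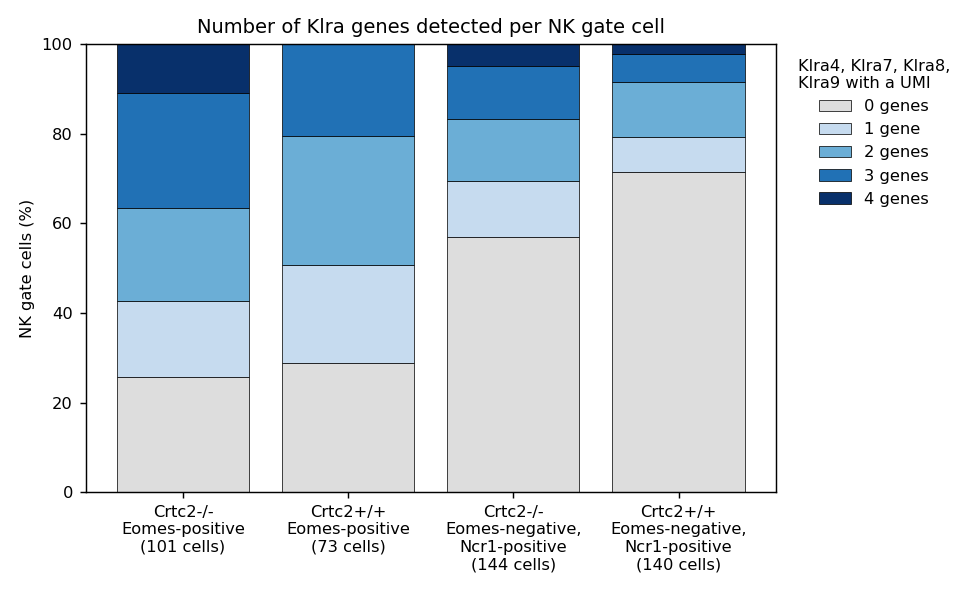
Number of the 4 Ly49 genes (Klra4, Klra8, Klra7, Klra9) with a UMI per NK gate cell, as percent of cells stacked from 0 genes at the bottom to 4 at the top. Crtc2-/- stands left of Crtc2+/+, for Eomes-positive cells and then for Eomes-negative, Ncr1-positive cells. Cells with none made up most of the Eomes-negative cells and a minority of the Eomes-positive cells, in both libraries.

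The Ly49 ratios depended on which cells the gate let in. NK gate cells that carried no UMI of Cd79a, Ms4a1, C1qa, C1qb, C1qc, Csf1r, S100a8 or S100a9 numbered 129 in Crtc2-/- and 70 in Crtc2+/+. In them the log2 ratio was 0.20 for Klra4, 0.04 for Klra8, 1.013 for Klra7 and -0.38 for Klra9, nearer 0 for Klra4 and Klra8, larger for Klra7 and reversed in sign for Klra9. At least 1 of the 4 genes was found in 80 of these Crtc2-/- cells (62.0%, 53.1% to 70.4%) and 35 of these Crtc2+/+ cells (37.8% to 62.2%), with overlapping intervals. Eomes was detected in 44.96% of the Crtc2-/- and 25.7% of the Crtc2+/+ cells of this stricter gate.

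Other genes of NK subsets lay apart in the same gate. Over 13 genes typical of ILC1 the median log2 ratio was -0.43, against 0.02 over all 9554 genes measured. Of the 13, 4 had log2 ratios above 0, against 53.4% of all genes, and none of these passed 2-fold. Another 4 were more than 2-fold lower in Crtc2-/-, against 1.29% of all genes. They were Gzmc, a granzyme, at 9.94 CPM in Crtc2-/- and 203 CPM in Crtc2+/+, the chemokine Xcl1 at 775 and 1907 CPM, Inpp4b, a phosphoinositide phosphatase, at 321 and 767 CPM, and Tnfsf10 (TRAIL) at 48.4 and 119 CPM. Of 13 genes of conventional NK maturation, with a median of 0.27, 10 were above 0, against 53.4% of all genes. Among them 2 were more than 2-fold higher, against 2.64% of all genes. These were the protease Cma1, at 117 CPM in Crtc2-/- and 48.0 CPM in Crtc2+/+, and the transcription factor Klf2, at 768 and 379 CPM. The cytotoxic granzyme Gzmb of the same list was lower, at 311 CPM in Crtc2-/- and 607 CPM in Crtc2+/+. So was Cx3cr1, at 35.8 CPM in Crtc2-/- and 69.8 CPM in Crtc2+/+. Both lists were chosen with results of these data known, and their part in the Ly49 values was not tested.

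Klra4 and Klra8, the activating pair, were detected in overlapping sets of NK cells. Klra4 was found in 62.4% of 93 Klra8-positive Crtc2-/- cells and 53.8% of 52 Klra8-positive Crtc2+/+ cells. Among Klra8-negative cells it was found in 11.2% of 152 in Crtc2-/- and 9.94% of 161 in Crtc2+/+. The inhibitory pair overlapped less plainly: Klra9 was in 42.0% of Klra7-positive and 21.3% of Klra7-negative Crtc2-/- cells, and in 31.0% and 21.1% of the same classes in Crtc2+/+, where the intervals overlapped. Among Eomes-positive Crtc2+/+ cells it was in 6 of 26 Klra7-positive and 18 of 47 Klra7-negative cells. Activating and inhibitory receptors occurred together in 89 Crtc2-/- and 54 Crtc2+/+ cells, and inhibitory receptors alone in 27 and 24.

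Klrc1 had the lower share in Klra8-positive cells. It was detected in 43.0% of Klra8-positive and 61.8% of Klra8-negative Crtc2-/- NK cells, and in 42.3% and 65.8% of the same classes in Crtc2+/+. Within Eomes-positive cells the shares were 44.9% and 51.9% in Crtc2-/- and 44.4% and 52.2% in Crtc2+/+, with overlapping intervals. Within Eomes-negative cells they were 40.9% of 44 and 67 of 100 cells in Crtc2-/-, and 10 of 25 and 71.3% of 115 cells in Crtc2+/+. Klra8-positive cells were the shallower ones, with medians of 4382 UMIs in Crtc2-/- and 4090 in Crtc2+/+ against 5485 and 5108 for Klra8-negative cells. As given above, 13.1% of the 3' stretches of Klra8 occur in other transcripts, and the part of shared reads in the joint detection of Klra genes was not tested.

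Outside the NK gate the Ly49 genes were found in a smaller share of cells, and single cells decided some values. At least 1 of the 4 was found in 4.71% of Crtc2-/- and 7.17% of Crtc2+/+ CD8 T cells and in 6.95% and 13.4% of Trdc T cells. The T cells with no Cd4, Cd8a, Cd8b1 or Trdc UMI had more, 15.6% in Crtc2-/- and 28.3% in Crtc2+/+. In CD8 T cells Klra7 had 26.6 CPM (23.4 to 30.2) in Crtc2-/- and 42.1 CPM (37.0 to 47.8) in Crtc2+/+, in 3.79% and 6.05% of cells, which is the reverse of its order in NK cells. Klra9 had 9.60 CPM in 18 Crtc2-/- cells and 5.49 CPM in 11 Crtc2+/+ cells. Klra4 was found in only 5 Crtc2-/- and 3 Crtc2+/+ CD8 T cells, and 1 cell held 59.4% of its UMIs in Crtc2-/- and 51.5% in Crtc2+/+. Klra8 was found in 9 Crtc2-/- and 7 Crtc2+/+ CD8 T cells, with 40.0% and 57.1% of the UMIs in 1 cell.

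The Klra7 difference in CD8 T cells moved with Pdcd1. Pdcd1-positive cells had 4.49 CPM in Crtc2-/- and 22.9 CPM in Crtc2+/+, on 20 and 30 UMIs. Pdcd1-negative cells had 47.6 CPM in Crtc2-/- and 47.9 CPM in Crtc2+/+. Among cells without Pdcd1 UMIs, Klra7 was thus nearly equal between libraries.

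In Trdc T cells Klra8 had 49 UMIs in 3 Crtc2-/- cells, 51.0% of them in 1 cell, and 2 UMIs in 1 Crtc2+/+ cell. The ratio of 19.8 had an interval of 5.20 to 168 and rests on those few cells. Klra7 had 43.1 CPM in Crtc2-/- and 57.7 CPM in Crtc2+/+ there, with overlapping intervals. Klra9 was spread differently: the T cells with no Cd4, Cd8a, Cd8b1 or Trdc UMI held 22.7% of its UMIs in Crtc2-/- and 60.1% in Crtc2+/+, at 41.7 and 128 CPM, in 6.39% and 19.5% of cells. In that group Klra4 had 10 UMIs in Crtc2-/- and 68 UMIs in Crtc2+/+, all of those in Crtc2+/+ in 1 cell. Since 49.4% of the 3' stretches of Klra9 occur in other transcripts, its level there is uncertain.

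**Figure D4:**
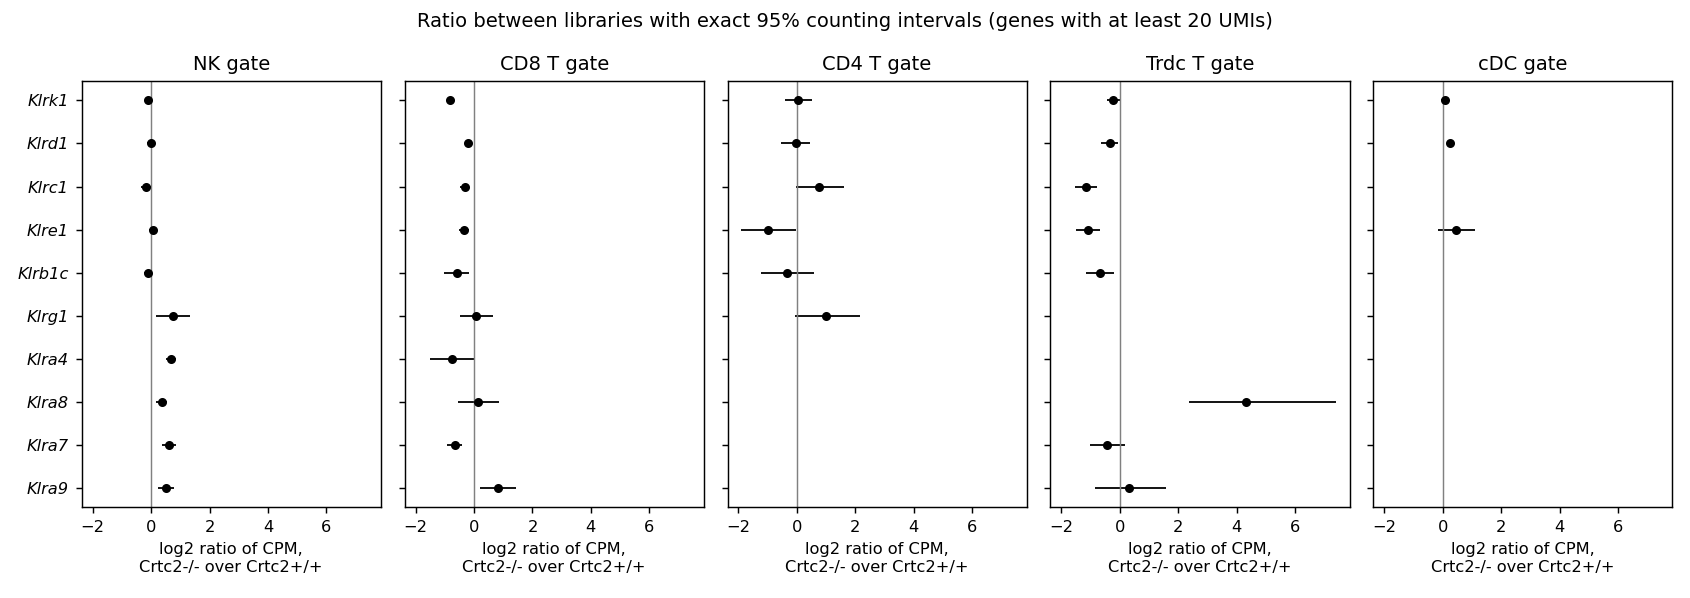
Ratio of CPM, Crtc2-/- over Crtc2+/+, on a log2 axis with no added constant, for the receptor genes with at least 20 UMIs in a gate. Bars are exact 95% counting intervals and the grey line marks equal levels. The 4 Klra genes lie right of the line in NK cells, and Klrk1, Klrd1, Klrc1 and Klre1 lie left of it in CD8 T and Trdc T cells.

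Counted over the whole set, few members passed a 2-fold limit (an absolute log2 ratio of at least 1, with at least 20 UMIs over both libraries). In NK cells all 10 were measured and 0 passed, against 3.93% of all genes. Their median log2 ratio was 0.21, against 0.02 for all genes, and 6 were above 0, near the 53.4% of all genes that were. In CD8 T cells all 10 were measured and 0 passed, against 1.94% of all genes. Here the median was -0.26, against 0.05 for all genes. Of the members 7 were below 0 and 3 above it, where 59.9% of all genes were above 0. In CD4 T cells 6 were measured and 0 passed, against 2.7% of all genes. In Trdc T cells 8 were measured, of which Klra8 was past the limit upward, against 1.94% of all genes, and Klrc1 downward, against 1.77%. In cDC 3 were measured and 0 passed, against 1.16% of all genes. The sub-gates gave 1 gene past the limit in Eomes-negative NK cells (Klra7, higher in Crtc2-/-, against 2.87% of all genes) and 2 in Pdcd1-positive CD8 T cells (Klrk1 and Klra7, lower, against 0.899%). The T cells with no Cd4, Cd8a, Cd8b1 or Trdc UMI gave 2 (Klra4 and Klra9, lower, against 0.555%). Counts of 0 to 2 of 10 genes are too small to set against these shares.

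Conventional dendritic cells, which are not killer cells, carried Klrd1 in most cells. Klrd1 had 408 CPM (396 to 421) in Crtc2-/- and 344 CPM (328 to 361) in Crtc2+/+ cDC, with a UMI in 84.6% and 74.2% of cells. After thinning to 1000 UMIs the expected shares were 32.5% in Crtc2-/- and 25.9% in Crtc2+/+. In the B cell gate, of which 39 Crtc2-/- and 10 Crtc2+/+ cells were also cDC, they were 1.24% and 0.681%. In macrophages, at medians of 10557 and 8791 UMIs per cell, they were 0.530% and 0.363%. The cDC share was thus far above that of cells that should lack the gene, at equal depth, and the cDC gate held 39.4% of all Klrd1 UMIs in Crtc2-/- and 26.0% in Crtc2+/+.

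Genes of NK cells were low in cDC. Nkg7, a granule gene of NK and CD8 T cells, had 12.96 CPM in Crtc2-/- and 10.3 CPM in Crtc2+/+ cDC, against 1707 and 1790 CPM in NK cells. Klrc1 had only 9 UMIs in Crtc2-/- and 5 in Crtc2+/+ cDC, and Klre1 had 84 and 30. Klrd1 was higher in the cDC2 (Cd209a without Clec9a), at 587 CPM in Crtc2-/- and 599 CPM in Crtc2+/+, than in the cDC1 (Clec9a), at 301 and 229 CPM. The interval of the ratio was 1.20 to 1.43 in the cDC1 and 0.908 to 1.06 in the cDC2, and whether the 2 ratios differ was not tested. The make-up of the gate also differed, with 313 cDC2 among 760 cDC in Crtc2-/- and 120 among 356 in Crtc2+/+. Of all cDC, 29 in Crtc2-/- and 72 in Crtc2+/+ were also in the macrophage gate. Macrophage markers summed to 1015 CPM in Crtc2-/- and 3383 CPM in Crtc2+/+ cDC1, and to 820 and 731 CPM in cDC2. The part of either in the pooled Klrd1 difference was not tested.

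Klrk1 was also above background in cDC, though less so. It had 111 CPM (105 to 118) in Crtc2-/- and 106 CPM (96.7 to 115) in Crtc2+/+ cDC, with expected shares after thinning of 9.48% and 8.88%. Macrophages gave 1.97% in Crtc2-/- and 1.53% in Crtc2+/+. The subsets ran in opposite directions: cDC1 had 120 CPM in Crtc2-/- and 87.4 CPM in Crtc2+/+, and cDC2 had 97.5 and 146 CPM. The other 7 members had at most 10 UMIs in either library's cDC.

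The matrices hold 16 further Klr genes. In NK cells 14 of them were measured, with a median log2 ratio of 0.12, 9 above 0 (53.4% of all genes were), 1 past 2-fold higher, against 2.64% of all genes, and 1 lower, against 1.29%. Klra5 was the higher one, on 26 UMIs in Crtc2-/- and 3 in Crtc2+/+. Klra2 was the lower one, at 49.0 CPM in Crtc2-/- and 122 CPM in Crtc2+/+. Macrophages had 537 CPM of Klra2 in Crtc2-/- and 695 CPM in Crtc2+/+, and macrophage markers in the NK gate were lower in Crtc2-/- too, as given above. Klrb1b, an inhibitory relative of Klrb1c that binds Clec2d, had 279 CPM in Crtc2-/- and 402 CPM in Crtc2+/+, in 46.1% and 67.6% of cells. Klrc2 (NKG2C) had 388 and 332 CPM, and Klri2, a partner of Klre1, had 243 and 212 CPM. Klra3 (Ly49C), whose transcript shares 3' stretches with that of Klra8, had 165 CPM in Crtc2-/- and 125 CPM in Crtc2+/+, a ratio of 1.32 (1.07 to 1.62).

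Klra1 had 46.4 CPM in Crtc2-/- and 34.5 CPM in Crtc2+/+ NK cells, and Klrb1a, Klrb1f and Klrc3 had log2 ratios of -0.09, 0.05 and -0.04. In CD8 T cells Klrc3 was the furthest from equal, at 4.15 CPM in Crtc2-/- and 11.5 CPM in Crtc2+/+. Klrc2 had 46.2 and 53.1 CPM there, and Klra1, Klra2, Klra3, Klra6 and Klrb1f were each below 20 CPM in both libraries. In cDC several relatives were found, such as Klra17, at 94.9 CPM in Crtc2-/- and 70.7 CPM in Crtc2+/+, and Klri1, at 56.7 and 71.5 CPM. Klra2 was 45.3 CPM in Crtc2-/- and 130 CPM in Crtc2+/+ cDC, where the macrophage markers summed to 942 and 2558 CPM.

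The ligands of these receptors were read in the same gates, and not in tumour cells. Of 9 NKG2D ligands, 5 were in the matrices and 2 were measured. Raet1e had 47.1 CPM in Crtc2-/- and 54.7 CPM in Crtc2+/+ NK cells, and 111 and 54.9 CPM in CD8 T cells, a log2 ratio of 0.90 there. Ulbp1 (Mult1) had 40.8 CPM in Crtc2-/- and 46.6 CPM in Crtc2+/+ CD8 T cells.

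Among 11 ligands of the other receptors, 8 were measured in CD8 T cells, with a list median of -0.15, against 0.05 for all genes. Of these, 1 passed 2-fold downward, against 0.507% of all genes. This was Cdh1, the E-cadherin that Klrg1 binds, at 7.75 CPM in Crtc2-/- and 65.9 CPM in Crtc2+/+, a log2 ratio of -2.10. In NK cells it had 8.62 CPM on 13 UMIs in Crtc2-/- and 24.4 CPM on 29 UMIs in Crtc2+/+. H2-T23, which supplies the Qa-1 ligand of CD94 and NKG2A, had 188 CPM in Crtc2-/- and 267 CPM in Crtc2+/+ NK cells, and 232 and 290 CPM in CD8 T cells. The 6 ligands measured in NK cells all had log2 ratios below 0, whereas 53.4% of all genes were above 0. Their median was -0.36, against 0.02 for all genes.

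Of the adaptors and signalling genes behind the receptors, 0 passed the 2-fold limit in either gate once 10 CPM was added, against 3.93% of all genes in NK and 1.94% in CD8 T cells. Of 18 genes, 17 were measured in each. The median log2 ratio was 0.04 in NK cells and 0.15 in CD8 T cells, against 0.02 and 0.05 for all genes. DAP12 (Tyrobp), through which Ly49D and Ly49H signal, had 1492 CPM in Crtc2-/- and 1436 CPM in Crtc2+/+ NK cells. DAP10 (Hcst), the NKG2D adaptor, had 347 CPM in Crtc2-/- and 386 CPM in Crtc2+/+ CD8 T cells. The kinase gene Syk lay furthest up in CD8 T cells, at 28.2 CPM in Crtc2-/- and 10.4 CPM in Crtc2+/+, and with no added constant its ratio had an interval of 2.02 to 3.64, past 2-fold.

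Several other receptors of NK and T cells were higher in Crtc2-/- CD8 T cells. Of 18 measured there, 4 were more than 2-fold higher in Crtc2-/-, against 1.43% of all genes. They were the inhibitory receptor genes Lag3, at 90.5 CPM in Crtc2-/- and 17.5 CPM in Crtc2+/+, Havcr2 (TIM-3), at 62.6 and 12.2 CPM, and Tigit, at 66.9 and 24.3 CPM, together with Cd160, at 155 and 71.0 CPM. In NK cells Tigit was past 2-fold lower, at 6.63 CPM on 10 UMIs in Crtc2-/- and 23.6 CPM on 28 UMIs in Crtc2+/+. Among 15 NK transcription factors, 0 of 13 measured passed in NK cells, against 3.93% of all genes, and 3 of 15 in CD8 T cells, all higher in Crtc2-/-, against 1.43%: Tox2, at 65.4 CPM in Crtc2-/- and 4.07 CPM in Crtc2+/+, Tox, at 1830 and 847 CPM, and Prdm1, at 82.5 and 34.7 CPM.

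The genes whose levels followed each receptor most closely were taken from 10253 candidates by Pearson's r over the 10 values of 5 gates in 2 libraries. The values of a library share its cells and the gates differ mainly by cell type, so r is a description. The closest gene was another Klr gene for Klra8 (Klra3, 0.99) and Klra7 (Klrc2, 0.97). Klrc1 followed Pim2 (0.99) and then Klrc2 (0.98), and Klre1 followed Ugcg and then Klrc2 (both 0.98). Klrb1c followed Cuedc1 (0.99) and Ncr1 (0.98), a gene of the NK gate itself. Klra4 and Klra9 both followed Adamts14 (0.99). Klrd1 followed Tm6sf1 (0.96), Klrk1 followed Ostf1 (0.95) and Klrc3 (0.94), and Klrg1 followed Cemip2 (0.98).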

How the data were processed

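Each library has 1 matrix, whose values are whole UMI counts that the authors deposited unnormalized. Per the file headers, Cell Ranger 7.1.0 made them. The submitters' processing notes name the mm10 build, Cell Ranger and Seurat. The sources used here do not state the annotation or whether intronic reads were counted. Of 32285 features, 32158 (99.6%) matched GENCODE M21. The protocols name a v2 3' kit.

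Barcodes with at least 500 UMIs, 250 genes and at most 20% mitochondrial UMIs were kept (9174 Crtc2-/- and 9612 Crtc2+/+). Doublets called by Scrublet in scanpy 1.11.5 were removed: 273 (2.98%) and 263 (2.74%), below the 7.34% and 7.69% expected at 0.8% per 1000 cells, so doublets remain. Gates rest on raw UMIs. T gates need a Cd3d, Cd3e and Cd3g sum of at least 2, with a Cd8a or Cd8b1 UMI (CD8 T), a Cd4 UMI and neither CD8 gene (CD4 T), or a Trdc UMI (Trdc T). B cells need a Cd79a and Cd79b sum of at least 2, and macrophages a C1qa, C1qb and C1qc sum of at least 10, both with no Cd3 UMI. A cell can fall in 2 gates.

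UMIs were summed per gate and library and given as CPM with exact Poisson intervals. Ratios have exact conditional intervals, and shares of cells have Clopper-Pearson intervals. Log2 ratios add 10 CPM. For a count of 0 the limit given is 3 counts over the total, which is not the exact Poisson limit. Shares after thinning are hypergeometric expectations at 1000 UMIs per cell. Simulated Poisson counts checked only the arithmetic of the sums and intervals, since such counts lack the clumping of UMIs in single cells. Members and gene lists were chosen with earlier results of these data known. All 10 members were named in every gate, the other Klr genes with at least 100 UMIs in a gate, and up to 4 genes a list with the largest ratio (not all are printed). Python 3.11.15, numpy 2.4.6, scipy 1.17.1 and pandas 2.3.3 were used.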

Additional observations from a re-analysis of the deposited data

Results flagged for a closer look

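Over the 5 gates compared (NK, CD8 T, CD4 T, Trdc T and cDC, without their subsets and the remaining T cells), 2 receptor genes had ratios of Crtc2-/- over Crtc2+/+ that lay on opposite sides of 1 in different gates, each with a counting interval that left out 1. Klrd1 had a ratio of 1.19 in cDC, 0.862 in CD8 T cells and 0.789 in Trdc T cells. Klra7 had a ratio of 1.54 in NK cells and 0.632 in CD8 T cells. For both genes the interval lay below 1 in Pdcd1-positive CD8 T cells and included 1 in Pdcd1-negative ones. With 1 library per genotype, the difference between gates was not tested.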

How the results depend on the processing

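The median log2 ratio of the members and their number past 2-fold were recomputed in each gate with a pseudocount of 1 CPM, scaling by the median gene ratio, means of per-cell CPM, doublets kept, a mitochondrial limit of 10%, no filter on low counts and other gate definitions, 74 values in all, of which 70 stayed close to the reported value. In NK cells without B cell, macrophage or neutrophil UMIs the median was -0.054 and 1 member passed 2-fold. In Trdc T cells 1 member passed, in place of 2, with doublets kept and with a Cd3 sum of at least 1. Of 279 single-gene values, 268 stayed within the counting interval of the reported ratio and 11 did not, and 7 of 37 gene and gate pairs changed sign somewhere: Klrd1 and Klra9 in NK cells, Klra8 in CD8 T cells, Klrd1 and Klrb1c in CD4 T cells, Klra9 in Trdc T cells and Klrk1 in cDC. Thinning to 1000 UMIs lowers every share, so differences in points after it cannot be set against those at full depth. After it the CD8 T difference in share, Crtc2-/- minus Crtc2+/+, was -8.88 points for Klrk1, -5.12 for Klrd1, -2.004 for Klre1 and -1.77 for Klrc1. Without the cell with most UMIs in each library, a check added after seeing the data, Klra8 in Trdc T cells had a log2 ratio of 1.69. Thinning aside, the cause of these shifts was not tested. No paired analysis was possible because each genotype has 1 library, and for the same reason no replicate could be left out. The NK and Trdc T gates hold few cells, so members under 20 UMIs were not read.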
